A study of Mus musculus with 16 samples.

Results

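The genes described here encode the folding machinery of the endoplasmic reticulum (ER) and the pathway that hands misfolded proteins back to the cytosol for destruction, called ER-associated degradation (ERAD). They were chosen by name as 35 chaperones, folding enzymes, translocon subunits, ERAD components and stress sensors. All 35 were among the 13275 genes of the RNA table and among the 12022 genes with enough counts to be tested. Their chromatin was read as accessible regions (peaks) that overlap the gene body or the 2 kb on either side of it.

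The cells were CD8+ T cells of Pmel mice, whose T cell receptor recognises a melanocyte antigen, carrying the LC3-GFP-RFP reporter of autophagosomes. Every cell had received anti-CD3 and anti-CD28 antibody (2 µg/ml each) with 100 IU/ml IL2 over 3 days and carbon monoxide (CO) for 24 h before the sort. The comparison therefore sets LC3-GFP positive against LC3-GFP negative cells, all of them CO-treated, and cells without CO were not analysed here. RNA came from 2 LC3-GFP positive and 2 LC3-GFP negative libraries. ATAC-seq, in which a transposase cuts open chromatin, came from another 2 and 2 libraries of the sorted cells (in vitro). A further 4 and 4 ATAC-seq libraries (in vivo) came from C57BL/6 hosts bearing B16-F10 melanoma, which were 12 days past inoculation when they received either population. The Vβ13+CD8+ fraction of tumour lymphocytes was taken 15 days after transfer, 1 mouse to a library. The labels name no depletion of host lymphocytes, so host cells with the same Vβ13+CD8+ markers may be among those sorted. The series title places the work around autophagy governed by the kinase PERK, and the comparison asks how cells with and without the reporter signal differ.

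Proteins that enter the secretory pathway pass through the SEC61 channel and fold in the ER with the help of the Hsp70 chaperone BiP, the lectin chaperones calnexin and calreticulin, and disulphide isomerases. When folding falls behind, the sensors IRE1, ATF6 and PERK start the unfolded protein response. The ATF6 and XBP1 branches of that response are known for raising chaperone and ERAD transcripts, and the PERK branch for slowing translation through eIF2α and raising ATF4 and CHOP. In CD8+ T cells, calreticulin and the isomerase ERp57 also take part in loading peptides onto MHC class I.

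Promoter sequences of 5 genes are shown because their transcripts were called higher in LC3-GFP positive cells and because their windows hold the element through which ATF6 is known to raise chaperone genes. The ER stress element (ERSE) was searched as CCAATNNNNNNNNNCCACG and the related ERSE-II as ATTGG and CCACG with 1 base between them, on both strands. The windows, from RefSeq on GRCm38.p6, run from 250 bases before the gene's start to 20 bases into the gene, 5′ to 3′ on the gene's own strand, and the capitals mark the match. They lie at chr2:34771840-34772109 on the plus strand (Hspa5), chr8:84846912-84847181 on the minus strand (Calr), chr12:17266339-17266608 on the plus strand (Pdia6), chr11:50325654-50325923 on the minus strand (Canx) and chr16:22857595-22857864 on the plus strand (Dnajb11).
Hspa5: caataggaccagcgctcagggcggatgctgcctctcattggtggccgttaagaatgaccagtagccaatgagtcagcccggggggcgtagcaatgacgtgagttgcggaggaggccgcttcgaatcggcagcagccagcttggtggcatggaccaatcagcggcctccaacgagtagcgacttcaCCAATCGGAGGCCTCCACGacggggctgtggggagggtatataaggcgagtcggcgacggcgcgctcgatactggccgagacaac
Calr: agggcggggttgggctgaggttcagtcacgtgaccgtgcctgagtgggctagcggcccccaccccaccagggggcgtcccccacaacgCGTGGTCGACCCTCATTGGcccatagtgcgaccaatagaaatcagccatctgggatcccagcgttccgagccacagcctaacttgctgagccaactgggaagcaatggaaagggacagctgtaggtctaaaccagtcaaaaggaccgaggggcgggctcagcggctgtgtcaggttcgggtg
Pdia6: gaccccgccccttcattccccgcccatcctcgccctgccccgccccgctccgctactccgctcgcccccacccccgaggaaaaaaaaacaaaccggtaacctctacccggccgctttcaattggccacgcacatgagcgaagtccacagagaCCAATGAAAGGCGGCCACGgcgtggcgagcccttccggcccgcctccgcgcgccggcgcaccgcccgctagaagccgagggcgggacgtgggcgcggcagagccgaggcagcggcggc
Canx: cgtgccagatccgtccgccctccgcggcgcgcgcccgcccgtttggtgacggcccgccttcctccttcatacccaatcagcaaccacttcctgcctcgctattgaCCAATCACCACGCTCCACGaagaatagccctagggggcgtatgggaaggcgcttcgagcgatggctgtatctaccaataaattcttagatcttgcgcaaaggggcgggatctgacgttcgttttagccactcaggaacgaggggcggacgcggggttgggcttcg
Dnajb11: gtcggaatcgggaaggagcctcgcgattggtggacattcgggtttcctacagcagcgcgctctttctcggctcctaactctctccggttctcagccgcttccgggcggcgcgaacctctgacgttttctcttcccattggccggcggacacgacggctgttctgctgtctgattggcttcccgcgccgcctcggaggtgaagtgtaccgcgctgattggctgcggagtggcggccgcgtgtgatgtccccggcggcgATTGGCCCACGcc

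In Hspa5, Pdia6 and Canx the ERSE reads along the gene, and in Calr it reads on the opposite strand. Counting the gene's start as 0, the match runs from -65 to -47 in Hspa5, from -162 to -144 in Calr, from -98 to -80 in Pdia6 and from -145 to -127 in Canx. Dnajb11 holds the shorter ERSE-II, from 7 to 17, just inside the gene.

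RNA depth was 17557628 and 15605902 counts for LC3-GFP positive cells, against 15850657 and 14567540 for negative cells. Rn45s, a ribosomal precursor, accounted for 1.43% and 1.51% of positive libraries, against 3.20% and 3.58% of negative libraries, and leaving it out before scaling left 10 of the 35 genes called higher and 2 called lower, as with it. CD8 T cell markers were present in every library, with 9 of 10 markers measured. Their summed level was 2526 to 2563 CPM in positive and 2803 to 2850 CPM in negative libraries. CPM are read counts scaled to library sizes after adjustment by TMM, the scaling between libraries that the test also used. The labels do not say whether RNA replicates are separate animals or cultures, so p-values measure only how these samples scatter, and that scatter may be technical. In bulk RNA, fewer cells of a type and less RNA per cell cannot be told apart.

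Several transcripts of ER chaperones and folding enzymes were modestly higher in LC3-GFP positive cells, and those of ERAD, the translocon and the stress sensors were mostly not called. At an adjusted p under 0.05 (edgeR's quasi-likelihood test, Benjamini-Hochberg over all genes), 10 of the 35 genes (28.6%) were called higher and 2 (5.71%) lower. Over all 12022 genes, 11.3% were called higher and 13.6% lower. With library sizes left unscaled, 14 members were called higher and 2 lower, and over all genes 2242 were higher and 1203 lower, against 1362 and 1638 with scaling. The other 23 genes did not pass the test. The median log2 change of the 35 genes was 0.080, against 0.0023 over all genes, and 26 of the 35 lay above 0. Both positive libraries lay above both negative libraries for 19 of the 35 genes, and both negative above both positive for 4. Over all genes those shares were 30.6% and 31%. No member changed by more than 1.5-fold, and the 10 called higher ranged from 1.14-fold to 1.35-fold. Summed over the 35 genes, the level was 8962 and 9028 CPM in positive libraries, against 8385 and 8140 CPM in negative libraries. Each member had at least 140 counts in every library, so none passed the filter on 1 group alone.

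**Figure D1:**
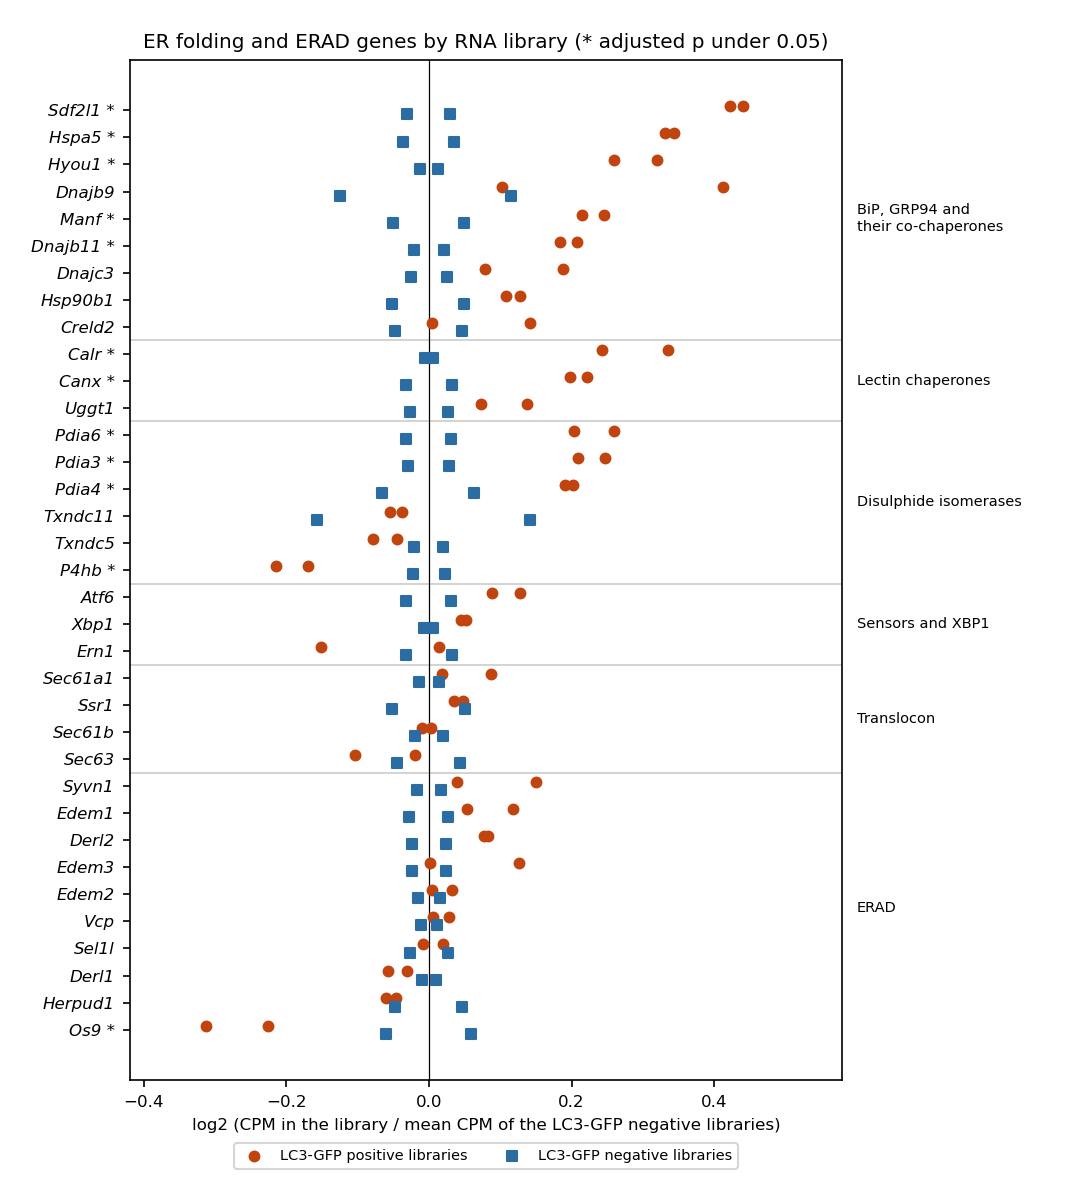
RNA level of each of the 35 ER genes in each library, as log2 of its CPM over the mean CPM of the negative libraries, ordered by role. Circles are the 2 LC3-GFP positive and squares the 2 LC3-GFP negative libraries, and stars mark genes with an adjusted p under 0.05. The 10 genes called higher have both positive libraries to the right, with Sdf2l1 farthest at a log2 change of 0.43, while P4hb and Os9 lie to the left.

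BiP and the proteins that serve it made up the largest block of calls, with 5 of 9 genes higher, none lower and a median log2 change of 0.23. Hspa5, which encodes BiP itself, had 715 and 721 CPM in positive libraries, against 582 and 554 CPM in negative libraries. Both positive values exceeded both negative ones, with a log2 change of 0.34 ± 0.044 (SE, n = 2 each; edgeR adjusted p = 2.29e-05). Sdf2l1, a partner of the J-domain co-chaperone ERdj3 that keeps folding proteins soluble, had the largest change of the 35. It stood at 92.4 and 93.6 CPM in positive libraries, against 67.5 and 70.4 CPM in negative libraries. The groups did not overlap (log2 change 0.43 ± 0.059, SE; edgeR adjusted p = 3.70e-05). Hyou1, which encodes the nucleotide exchange factor GRP170 that resets BiP, had 198 and 190 CPM in positive libraries, against 160 and 157 CPM in negative libraries. Its positive libraries were both higher (log2 change 0.29 ± 0.048, SE; edgeR adjusted p = 0.000238).

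Manf, a small BiP cofactor that is also secreted, had 142 and 145 CPM in positive libraries, against 118 and 126 CPM in negative libraries. Its groups were apart, with a log2 change of 0.23 ± 0.053 (SE; edgeR adjusted p = 0.00363). Dnajb11, which encodes ERdj3 and delivers unfolded chains to BiP, had 119 and 121 CPM in positive libraries, against 106 and 103 CPM in negative libraries. Replicates of 1 group differed by less than the groups did (log2 change 0.20 ± 0.053, SE; edgeR adjusted p = 0.0110), but DESeq2 did not call the gene, and it missed the threshold without either positive library. Dnajc3, the co-chaperone P58IPK that is also known to restrain PERK, had 125 and 134 CPM in positive libraries, against 120 and 116 CPM in negative libraries. The positive libraries were both higher, but the gene did not pass the test (log2 change 0.13, edgeR adjusted p = 0.0860).

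Hsp90b1, the ER member of the Hsp90 family known as GRP94, had 976 and 990 CPM in positive libraries, against 938 and 874 CPM in negative libraries. Here too the groups did not overlap and the test was missed (log2 change 0.12, edgeR adjusted p = 0.0713). Both Dnajc3 and Hsp90b1 were called higher without negative replicate 1 and with library sizes left unscaled. The log2 change was 0.068 in Hsp90b1 without negative replicate 2 and 0.080 in Dnajc3 without positive replicate 2, and neither passed the test there. Dnajb9, the J-domain protein ERdj4 that is known to dampen IRE1, gave 13.1 and 10.6 CPM in positive libraries, against 9.06 and 10.7 CPM in negative libraries. Those groups overlapped, and the gene did not pass the test (log2 change 0.27 ± 0.15, SE; edgeR adjusted p = 0.216). The log2 change ran from 0.11 to 0.42 with a library left out. Creld2, an ER stress-responsive secreted protein, also overlapped between groups, with a log2 change of 0.076.

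Among the lectin chaperones, which hold glycoproteins while they fold, 2 of 3 genes were called higher. Calr, which encodes calreticulin, had 877 and 935 CPM in positive libraries, against 744 and 738 CPM in negative libraries. Its positive libraries differed more from each other than its negative ones did, yet both were well above (log2 change 0.29 ± 0.045, SE; edgeR adjusted p = 0.000142). Canx, which encodes the membrane-bound calnexin, had 852 and 838 CPM in positive libraries, against 747 and 714 CPM in negative libraries. The groups did not overlap (log2 change 0.21 ± 0.044, SE; edgeR adjusted p = 0.00186), and leaving out positive replicate 1 gave an adjusted p of 0.0704. Uggt1, the glucosyltransferase that returns unfolded glycoproteins to these lectins, had a log2 change of 0.11 (edgeR adjusted p = 0.121), with both positive libraries above both negative ones. It was called higher without negative replicate 2 and with library sizes left unscaled.

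Disulphide isomerases split, with 3 of 6 higher and 1 lower. Pdia3, which encodes ERp57, the partner of calnexin and calreticulin, had 754 and 774 CPM in positive libraries, against 666 and 640 CPM in negative libraries. Pdia6 had 223 and 232 CPM in positive libraries, against 198 and 190 CPM in negative libraries. Pdia4, which encodes ERp72, had 208 and 209 CPM in positive libraries, against 190 and 174 CPM in negative libraries. All 3 genes were apart between groups, with log2 changes of 0.23, 0.23 and 0.20 for Pdia3, Pdia6 and Pdia4 (SE 0.044 for Pdia3, 0.048 for Pdia6 and 0.051 for Pdia4). Their edgeR adjusted p values were 0.000931 for Pdia3, 0.00161 for Pdia6 and 0.00855 for Pdia4. Pdia4 was lost when either positive library was left out.

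P4hb, the classical protein disulphide isomerase and also the β subunit of collagen prolyl 4-hydroxylase, went the other way. It had 635 and 615 CPM in positive libraries, against 726 and 703 CPM in negative libraries. Both positive libraries were below both negative ones (log2 change -0.19 ± 0.044, SE; edgeR adjusted p = 0.00354), and the call was lost when either positive library was left out. Txndc5 (ERp46) and Txndc11, a thioredoxin-domain protein of the ER membrane, did not pass the test, with log2 changes of -0.062 and -0.049. In Txndc11 the negative libraries stood on either side of the positive ones, and with unscaled library sizes both genes lay just above 0.

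The sensors and their main transcription factor did not pass the test. Xbp1, whose messenger RNA is spliced by IRE1 into the active form, had 286 and 287 CPM in positive libraries, against 278 and 276 CPM in negative libraries. Atf6, the sensor that is cleaved in the Golgi to release a transcription factor, had 69.9 and 68.0 CPM in positive libraries, against 65.4 and 62.6 CPM in negative libraries. For both genes the positive libraries were higher by a narrow margin, with log2 changes of 0.049 for Xbp1 and 0.11 for Atf6 (edgeR adjusted p = 0.465 and 0.237). Ern1, which encodes IRE1α, had 11.1 and 12.5 CPM in positive libraries, against 12.1 and 12.7 CPM in negative libraries, and the groups overlapped (log2 change -0.069 ± 0.14, SE; edgeR adjusted p = 0.760). Counts per gene do not separate spliced from unspliced Xbp1, nor cleaved from intact ATF6.

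None of the 4 translocon genes was called, and their log2 changes ran from -0.061 to 0.053. These were the channel subunits Sec61a1 and Sec61b, the BiP-recruiting Sec63, and Ssr1 of the translocon-associated complex. Groups overlapped for 3 of the 4.

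Among the 10 ERAD genes, Os9 was the sole call. OS-9 is the lectin that carries glycan-trimmed substrates to the HRD1 ubiquitin ligase. Os9 had 162 and 172 CPM in positive libraries, against 210 and 193 CPM in negative libraries. Both positive libraries were lower (log2 change -0.27 ± 0.053, SE; edgeR adjusted p = 0.00100). The other 9 had log2 changes between -0.055 and 0.097, and among them Edem1 was called higher without negative replicate 1 and with library sizes left unscaled. These 9 were the mannose-trimming proteins Edem1, Edem2 and Edem3, the ligase Syvn1 (HRD1) and its adaptor Sel1l, the ligase-associated Herpud1, the channel proteins Derl1 and Derl2, and the extraction ATPase Vcp (p97). Herpud1, a familiar ER stress transcript, had 80.5 and 81.2 CPM in positive libraries, against 86.7 and 81.2 CPM in negative libraries. Its groups met at 81.2 CPM (log2 change -0.055, edgeR adjusted p = 0.552; 0.0079 with unscaled library sizes).

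Some members overlap another annotated gene, and no source used here says how shared reads were counted. Among the 12 called genes this holds for Hspa5 with Rabepk, Pdia6 with Atp6v1c2, Pdia3 with Catsper2, and Pdia4, Dnajb11 and Os9 with small or unnamed loci. Their counts are uncertain to that extent.

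Markers of other cells moved with the sort. Of the B and plasma cell list, 11 of 16 markers were measured and 8 were called higher in positive cells, with a summed level of 859 to 876 CPM in positive and 716 to 768 CPM in negative libraries. Most of that sum was Irf4 and Prdm1, which activated T cells also express. Without them the sum was 26.9 and 24.4 CPM in positive libraries, against 10.6 and 11.7 CPM in negative libraries, or 483 and 389 counts against 164 and 168 counts. Mzb1, an ER protein of antibody-secreting cells, had 24 and 49 counts in positive libraries, against 4 and 0 counts in negative libraries. Of 9 CD8 T cell markers tested, 6 were called lower and none higher in positive cells. Macrophage and dendritic cell markers summed to 71.5 to 76.4 CPM in positive and 77.0 to 82.1 CPM in negative libraries (3 higher and 2 lower of 7 tested). Most of that sum was H2-Ab1, which was lower in positive cells, as was Cd68. Without H2-Ab1 the sum was 24.7 and 24.2 CPM in positive libraries, against 9.97 and 10.8 CPM in negative libraries. The 3 called higher were Cd74, H2-Aa and Mpeg1, which B cells also express. Cd74 had 293 and 232 counts in positive libraries, against 13 and 19 counts in negative libraries. H2-Aa had 46 and 57 counts in positive libraries, against 4 and 2 counts in negative libraries, and Mpeg1 had 30 and 17 counts, against 0 and 1. CD4 T cell markers summed to 84.1 to 88.4 CPM in positive and 108 to 119 CPM in negative libraries (1 higher and 2 lower of 3 tested). The genes called lower, Zbtb7b and Gata3, made up most of that sum. Cd4 itself was higher, with 79 and 54 counts in positive libraries, against 15 and 10 counts in negative libraries (log2 change 2.21 ± 0.35, SE; edgeR adjusted p = 0.000144). All 3 NK and mast cell markers tested were lower, at 55.9 to 56.6 CPM in positive and 143 to 153 CPM in negative libraries, and none of 4 melanoma and stroma markers was called. The part of these cells in the ER gene changes was not tested.

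Over lists related to ER folding and stress, calls ran in both directions. Of 180 tested genes on 10 related lists, 24 (13.3%) were called higher and 29 (16.1%) lower, with a median log2 change of 0.018. Over all genes the shares were 11.3% and 13.6%. The list of 23 cytosolic and mitochondrial chaperones lies outside the ER and supplied 9 of the 24 higher and 1 of the 29 lower calls. With library sizes left unscaled 43 of the 180 genes were higher and 17 lower, and DESeq2 called 16 higher and 14 lower. Without positive replicate 1 the counts were 12 higher and 14 lower, and without positive replicate 2 they were 4 higher and 13 lower.

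Other oxidoreductases had 5 of 17 genes higher (29.4%) and 2 lower (11.8%), against 11.3% and 13.6% over all genes. Pdia5, a further isomerase, had 3.68 and 3.39 CPM in positive libraries, against 2.01 and 1.68 CPM in negative libraries, the groups being apart (log2 change 0.94 ± 0.29, SE; edgeR adjusted p = 0.0239). Selenof and Qsox2 were also higher, by 0.33 and 0.28 on the log2 scale. Ero1l, the oxidase that recharges protein disulphide isomerase, had 699 and 706 CPM in positive libraries, against 1129 and 1032 CPM in negative libraries. That was the largest fall in this list (log2 change -0.62 ± 0.048, SE; edgeR adjusted p = 4.00e-08), and Erp29 was lower by a log2 change of -0.22.

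Of 23 other ER chaperones and prolyl isomerases, none was called higher and 3 (13.0%) were lower, against 11.3% and 13.6% over all genes. The 3 were the calcium-binding Sdf4 and Nucb1 and the J-domain protein Dnajc1 (log2 changes -0.26, -0.23 and -0.22). N-glycosylation genes had 3 of 18 higher (16.7%) and 1 lower (5.56%). The oligosaccharyltransferase subunit Rpn1 (log2 change 0.20), the glucosidase Mogs (0.18) and the cargo lectin Lman1 (0.21) were higher, and Krtcap2, another oligosaccharyltransferase subunit, was lower (-0.21). Translocon and signal recognition genes beyond the members split evenly, with 2 of 21 higher (9.52%) and 2 lower (9.52%). Spcs2 (0.16) and Srpr (0.15) were higher and Srp68 (-0.16) and Ssr3 (-0.15) lower.

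Other ERAD genes had 1 of 25 higher (4%), the ligase Rnf139 (log2 change 0.26), and 4 lower (16%). The shares over all genes were 11.3% and 13.6%. Among the lower genes were the ligase Trim13 (-0.55), the lectin Erlec1 (-0.30), which like OS-9 reads trimmed glycans, and the glycanase Ngly1 (-0.21). Erlec1 had 26.0 and 25.8 CPM in positive libraries, against 30.7 and 33.2 CPM in negative libraries, without overlap (edgeR adjusted p = 0.0173). In transport between ER and Golgi, 1 of 19 genes was higher (5.26%), the coat subunit Sec13 (0.21), and 3 were lower (15.8%). The receptors that return escaped chaperones, Kdelr1 and Kdelr2, were lower (-0.23 and -0.16), as was the coat subunit Sec24d (-0.44). Kdelr1 had 72.3 and 69.4 CPM in positive libraries, against 84.5 and 81.4 CPM in negative libraries, again without overlap (edgeR adjusted p = 0.0102).

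Receptors for ER-phagy, the autophagy of ER, had 1 of 8 higher (12.5%) and 1 lower (12.5%), close to the 11.3% and 13.6% over all genes. Retreg1 (FAM134B), a receptor of ER sheets, had 79.3 and 76.9 CPM in positive libraries, against 57.7 and 65.5 CPM in negative libraries. Its positive libraries were both higher (log2 change 0.34 ± 0.068, SE; edgeR adjusted p = 0.00117), while Calcoco1 was lower (-0.43). Genes listed as PERK branch outputs had 9 of 15 lower (60%) and 1 higher (6.67%), with a median log2 change of -0.31. Whether PERK activity differed was not tested. Among the lower genes were Ddit3, which encodes CHOP (-1.02), Trib3 (-0.97), Atf5 (-0.95) and Atf4 (-0.16), and Atf3 was higher (0.34). Other sensors and membrane factors had 3 of 11 lower (27.3%) and 1 higher (9.09%). The lower genes were Creb3l1 (-0.68), Creb3l2 (-0.39) and Eif2ak3, which encodes PERK (-0.23), and Bax was higher (0.28).

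**Figure D2:**
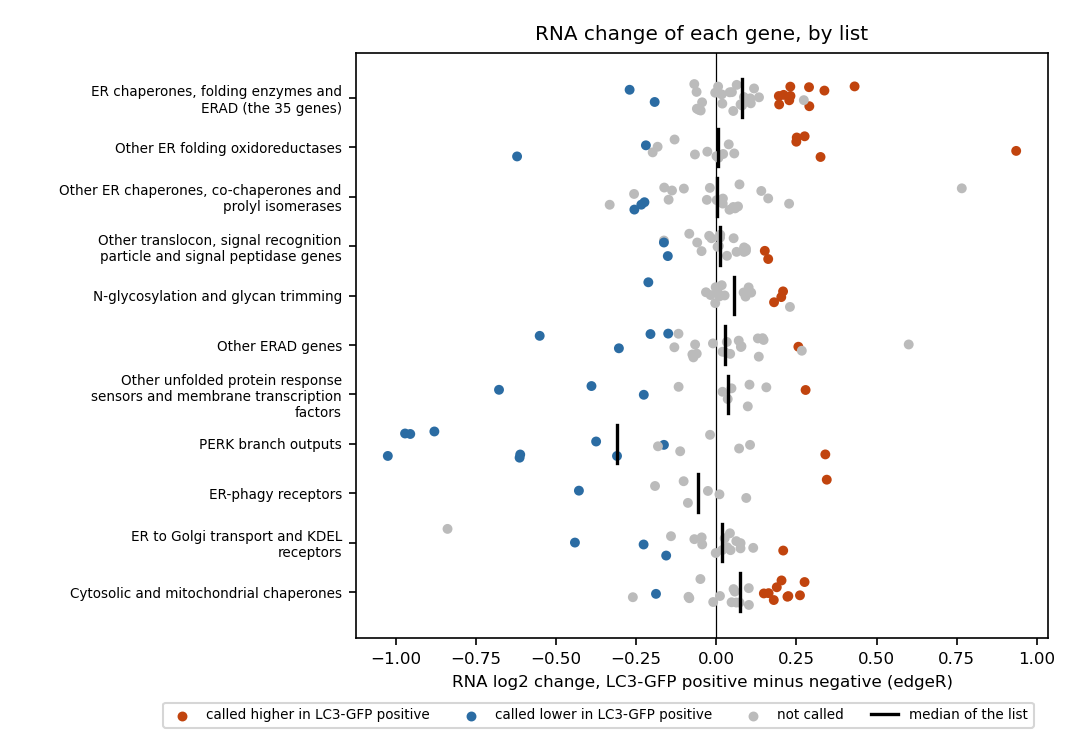
RNA log2 change (LC3-GFP positive minus negative, edgeR) of each tested gene in the 35-gene set and in 10 related lists. Points are genes, coloured by call at an adjusted p under 0.05, and black bars are medians. The 35 genes have a median of 0.080 and 10 genes called higher, and the list of PERK branch outputs has a median of -0.31.

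Promoter windows of 250 bases before to 50 after the start were at hand for 30 of the 35 genes, and Atf6, Hyou1, Manf, Derl1 and Sec61a1 were not covered. An ERSE was found in 8 of the 30 windows, against 16 of 9415 windows (0.170%) over all tested genes that had one, the 8 included. ERSE is known from chaperone genes, and the members include such genes, so the difference in shares is not a finding of these data. Of those 8 genes, 4 were called higher (Hspa5, Calr, Canx and Pdia6) and 4 were not called. Called higher were 28.6% of the 35 members and 11.3% of all genes. The 4 not called were Hsp90b1, with 2 matches at -212 to -194 and -107 to -89, Dnajc3 at -105 to -87, Creld2 at -126 to -108 and Syvn1 at -44 to -26. Alg12, whose window overlaps that of Creld2, was among the other 8 genes with a match and had a log2 change of -0.091. Among those other 8, Pan2 was called lower and the rest were not called.

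ERSE-II was found in 2 of the 30 windows and in 6 of 9415 (0.0637%). The pair was Dnajb11, called higher, and Herpud1, not called, where the match lies at -52 to -42. Of the 10 called members with a window, 5 held an ERSE or ERSE-II. Sdf2l1, Pdia3 and Pdia4, called higher, and P4hb and Os9, called lower, held no exact match to either in their windows. Copies that differ by a base, or that lie outside the window, were not searched. The XBP1-type element (UPRE), searched as TGACGTGG, was in 2 of 30 windows (Txndc11 and Vcp) and in 79 of 9415 (0.839%). The ATF4-type element (CARE), searched as TGATGNAA, was in 2 of 30 (Herpud1 and Txndc5) and in 204 of 9415 (2.17%). None of these 4 genes was called. Motifs were searched on both strands, ERSE, ERSE-II and UPRE share the letters CCACG, and no 2 matches overlapped in the members' windows. A match is a description of letters and not of binding.

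Chromatin at the starts of these genes was open in all samples. Each of the 35 genes had a peak within 1 kb of its start in all 12 ATAC libraries, against 10926 of 13275 genes (82.3%) in the RNA table. Those 13275 include genes with too few counts to be tested, while every member was tested. The share over tested genes alone was not computed. Every ERSE and ERSE-II match listed above lay inside a peak in 12 of 12 libraries, LC3-GFP positive and negative, in vitro and in vivo. The matches lie within 250 bases of starts that had a peak in every library, so this follows largely from the start peaks. The CARE match of Txndc5 was covered in 7 of 12. At Hspa5 the peak summit lay between 4 and 220 bp inside the gene across the 12 libraries. Summits sat farthest from the start at Xbp1, 359 to 1345 bp inside the gene, at Txndc5, 550 to 738 bp inside, and at Hsp90b1, from -775 to -173 bp.

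**Figure D3:**
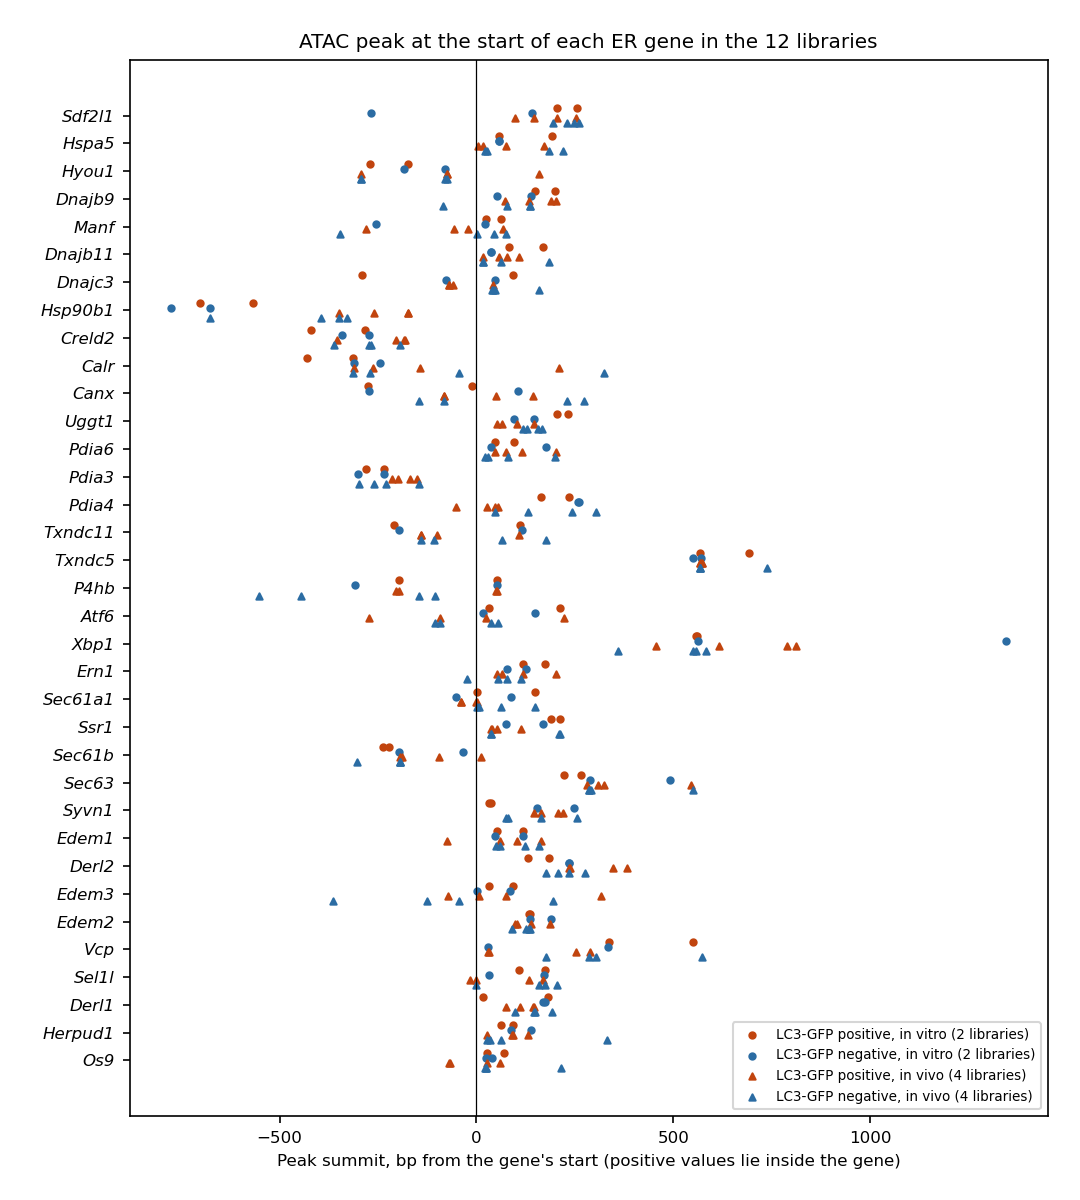
Position of the ATAC peak summit nearest the start of each of the 35 ER genes, in bp from the start, with positive values inside the gene. Circles are in vitro and triangles in vivo libraries, LC3-GFP positive in red and negative in blue. Each gene has a point for each of the 12 libraries, and the colours are mixed within genes, with Xbp1, Txndc5 and Hsp90b1 farthest from the start.

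Peak strength is given here as the authors' fold enrichment over local background, ranked within a library only. Promoter peaks of the ER genes had a median percentile, among all peaks of their library, of 62.5 to 76.6, against 69.4 to 75.4 for peaks at all promoters. Members differed among themselves. Edem2 ranked highest, with a median percentile of 98.8 over the 12 libraries and a fold enrichment of 6.70 to 14.3. Txndc5 and Ssr1 followed at 92.1 and 90.3. By this measure Hspa5 ranked low, at a median percentile of 30.9 and a fold enrichment of 2.73 to 5.99, as did P4hb at 30.8 and Atf6 at 34.0. The order depends on the measure. The authors' pileup signal at the summit was 81 to 150 at Hspa5 and 44 to 96 at Edem2, and Hspa5 was higher in every library. Percentiles by pileup were not computed.

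Across whole genes, 116 merged regions were found at the members in vitro and 108 in vivo. In each experiment 35 of these were at a gene start. In vitro 78 of 116 regions (67.2%) were present in all 4 libraries, against 58.3% of regions at all genes, and in vivo 48 of 108 (44.4%) were present in all 8, against 38.3%. For 10 genes, Hspa5, Hsp90b1, Sdf2l1, Dnajb9, P4hb, Sec61a1, Sec61b, Syvn1, Derl2 and Vcp, the region at the start was the only one in both experiments. The long genes of the sensors had the most, with 11 and 11 regions at Ern1 and 10 and 15 at Atf6, in vitro and in vivo.

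Regions found in every library of 1 group and none of the other were few, and none lay at a gene start. In vitro, 4 of 116 regions (3.45%) were found only in LC3-GFP positive cells, against 6.84% of regions at all genes. They lay within Uggt1 (chr1:36224424-36225434), at the far end of Ern1 (chr11:106397562-106398123) and within Txndc11 (chr16:11103727-11104399 and chr16:11109044-11109659), on mm10. Another 2 of 116 (1.72%) were found only in negative cells, against 2.97%, within Dnajc3 (chr14:118940705-118941255) and Txndc11 (chr16:11085738-11086317). In vivo, the region overlapping that of Dnajc3 was found in 3 positive and 1 negative libraries, the opposite direction. The in vivo region overlapping chr16:11109044-11109659 of Txndc11 was found in 0 positive and 2 negative libraries, also opposite. At the Uggt1 place it was 1 positive and 0 negative, and the other places had no overlapping in vivo region. Leaving out positive replicate 1 gave 9 positive-only regions, leaving out positive replicate 2 gave 13 and leaving out negative replicate 1 gave 10, and the negative-only count was 4 without negative replicate 2. Of the genes named here, none was called in RNA.

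In the tumour, 2 of 108 regions (1.85%) were found only in positive cells, against 0.616% of regions at all genes, and 0 of 108 only in negative cells, against 0.846%. The first lay downstream of Ssr1 (chr13:37969226-37970047), where it also overlaps Gm52041. The second lay within Txndc11 (chr16:11077587-11078671), 56403 bp from its start. In vitro, a region at the same place (chr16:11077335-11078857) was open in all 4 libraries. At a stricter peak threshold (-log10 q of at least 5) the positive-only count was 1.

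As a share of all peaks, those at the ER genes made up 16.3 and 17.8 per 10000 in LC3-GFP positive libraries in vitro, against 16.3 and 17.3 per 10000 in negative libraries. The groups overlapped, with means of 17.1 ± 1.07 and 16.8 ± 0.733 (SD, n = 2 each). In vivo the share was 20.8, 18.8, 18.9 and 19.2 per 10000 in positive libraries, against 18.1, 14.9, 17.6 and 17.5 per 10000 in negative libraries. All 4 positive values exceeded all 4 negative ones, with means of 19.4 ± 0.925 and 17.0 ± 1.46 (SD, n = 4 each), a difference of 2.41. No test is given for these shares, since the genes were chosen with earlier results of these data known.

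Numbers of peaks differed along with this share. In vivo, 27406, 37154, 36539 and 37477 peaks were called for positive cells, against 41435, 55171, 35758 and 33704 for negative cells. The ER genes themselves had 57, 70, 69 and 72 peaks in positive libraries, against 75, 82, 63 and 59 in negative libraries, so the raw numbers overlapped. Each library had exactly 35 peaks at the members' starts, so a share of promoter peaks alone follows the library's total. When the 25000 strongest peaks of each library were compared, a setting chosen after seeing the data, the in vivo difference was 0.6 per 10000 and the groups overlapped, at 20.8 to 22 per 10000 in positive and 19.6 to 21.6 per 10000 in negative libraries. Without positive replicate 1, the library of fewest peaks, the difference over all peaks was 1.96.

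**Figure D4:**
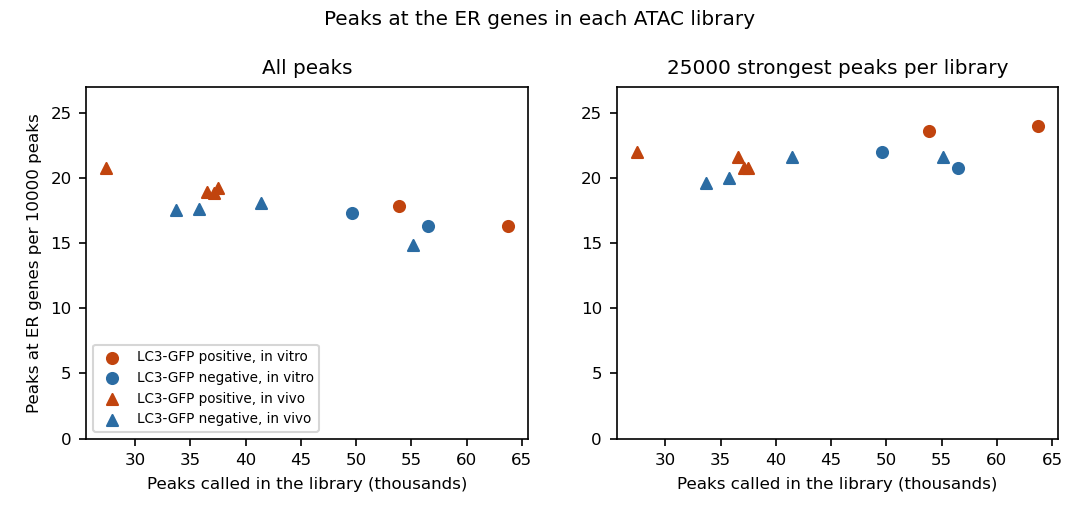
Peaks at the 35 ER genes per 10000 peaks (vertical axis) against the number of peaks in the library (horizontal axis, in units of 1000), for all peaks (left) and for the 25000 strongest peaks of each library (right). Red marks LC3-GFP positive and blue LC3-GFP negative libraries, with circles in vitro and triangles in vivo. On the left the 4 positive in vivo libraries (18.8 to 20.8) lie above the 4 negative ones (14.9 to 18.1), and on the right the groups overlap.

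Tumour-derived cells were also set beside cells before transfer, over 135 regions merged across all 12 libraries. Tumour residence, host, cell recovery and library depth cannot be told apart in this comparison. In LC3-GFP positive cells 3 regions (2.22%) were found in all tumour and no earlier library, against 1.54% of regions at all genes, within Ern1 (chr11:106430176-106431181) and Txndc5 (chr13:38501128-38502230) and downstream of Ssr1. In negative cells the count was 0, against 0.51%. The Ern1 region was nevertheless found in 3 of the 4 negative tumour libraries and the Txndc5 region in 2, while the Ssr1 region was in none of them. At the stricter peak threshold the 3 regions of positive cells became 1.

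Regions found only before transfer were more numerous. In both populations together, 8 regions (5.93%) were found in all 4 libraries before transfer and in none of the 8 from tumours, against 4.85% of regions at all genes. They lay within Atf6, Canx (2 regions), Derl1, Pdia3 and Edem2 (2 regions) and downstream of Herpud1. The Pdia3 region (chr2:121423540-121424754) lies 10245 bp from the start, and the Canx regions (chr11:50304422-50305279 and chr11:50312803-50314567) lie 20823 and 11988 bp from it. Within LC3-GFP positive cells 22 regions (16.3%) showed this pattern, against 17.7% at all genes, and within negative cells 12 (8.89%), against 8.97%. No start region was among them.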

How the data were processed

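For RNA, the authors deposited estimated counts per gene without scaling. Per the submitters' processing notes it was made with Partek, STAR and DESeq2 on mm10, with versions, strandedness and the counting method not given in the sources used here. Per library 22.5% to 23.8% of values were not whole, and all were rounded. Genes were kept by edgeR's filterByExpr, libraries scaled by TMM and the groups compared by edgeR's quasi-likelihood test (edgeR 4.0.16, R 4.3.3) with Benjamini-Hochberg adjustment over all genes and a threshold of 0.05. The SE is the log2 change divided by the square root of the F statistic. A level of 3 counts was 0.167 to 0.210 CPM, which limits only the marker genes, and such floors cover counting error only. The script was tested on simulated data. DESeq2 1.42.0, other scalings, no filter, a replicate block and leaving out libraries were the alternatives.

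The ATAC peak lists deposited by the authors were made per library with cutadapt, BWA and MACS2 on mm10, per the submitters' processing notes. No source used here says whether reads were shifted for the transposase. Each deposited peak has a pileup signal, a fold enrichment, and -log10 of the p-value and q-value, per the file headers. They served to rank or filter peaks within a library. Read depth is unknown, and the number of peaks, 27406 to 63761, stands in for it. Peaks were merged at an overlap of at least 1 bp and assigned by the RNA table's gene coordinates extended by 2 kb. Printed positions may be off by 1 base, since the table does not state its convention. Shares of peaks were compared by their values and ranges over libraries (Python 3.11.15). Exons and introns were not used here.

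Promoter windows and overlapping genes came from RefSeq GRCm38.p6, the assembly that mm10 names. The members and the gene lists were chosen with earlier results of these data known, so no list, score or share over the members is given a p-value; a permutation test planned for the peak shares is therefore not reported. Values in every library are given for called members, for Ern1, Atf6 and Xbp1 and for Hspa5, Hsp90b1, Calr and Canx, with Herpud1, Dnajb9 and Dnajc3 added after their values were seen. Of each related list, up to 3 called genes of largest change in each direction are named, and Eif2ak3, Atf4 and Ddit3 always. Promoters are printed for called members that hold an ERSE or ERSE-II. Related genes with older symbols were matched through RefSeq synonyms.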

Additional observations from a re-analysis of the deposited data

Results flagged for a closer look

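In the 4 LC3-GFP positive in vivo ATAC libraries, replicate 1 held 27406 peaks and lay far below the other 3, which held 37154, 36539 and 37477. A gap of this size relative to the group's range exceeds Dixon's critical value for 4 samples, which chance passes in about 1 in 20 groups. Several measures were checked at both ends in both in vivo groups and no other was flagged, so a flag is less unusual than that. That library also had the highest share of peaks at the ER genes, 20.8 per 10000. Without it the in vivo difference between positive and negative libraries was 1.96 per 10000.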

How the results depend on the processing

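The number of ER genes called higher was 10 as reported and 9 with DESeq2, 10 with RLE scaling, 10 without the filter on low counts, 14 with library size alone and 12 with the replicate block, which added Hsp90b1 and Dnajc3 (edgeR adjusted p = 0.0342 and 0.0418). Leaving out a library gave 7 to 13 higher and 1 to 2 lower. Over 350 recomputed single-gene values, 319 kept direction and side of the threshold, 8 lost and 10 gained a call, and 13 turned sign, all in genes not called. With library size alone the median of all genes shifted to 0.065 and the share of higher among all calls was 65.1% rather than 45.4% (2242 higher and 1203 lower). Herpud1 (0.0079), Derl1 (0.018), Txndc5 (0.00087), Txndc11 (0.014), Sec61b (0.059) and Sec63 (0.0019) then lay above 0. With a library left out, 5 genes lay on either side of 0, Ern1 from -0.15 to 0.015, Sel1l from -0.021 to 0.033, Sec61b from -0.023 to 0.016, Txndc11 from -0.19 to 0.11 and Ssr1 from -0.0089 to 0.093. Related genes numbered 43 higher and 17 lower with library size alone and 16 higher and 14 lower with DESeq2, and 4 to 31 higher and 13 to 33 lower with a library left out. DESeq2 called 718 higher and 1015 lower over all genes.

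The in vitro peak share difference turned to -0.631 with promoter windows alone and ran from -0.498 to 1.01 with a library left out. In vivo it was 1.54 with promoter windows and 0.6 with the 25000 strongest peaks, where the groups overlapped, 2.00 per 10000 peaks at genes, where they did not, 2.41 under the replicate block as without it, and 1.69 to 2.77 with a library left out. Group-only regions numbered 5 to 13 and 2 to 4 in vitro (positive, negative) and 2 to 3 and 0 to 2 in vivo with a library left out. With -log10 q of at least 5 there was 1 positive-only region in vivo and 1 tumour-only region in positive cells. The RNA replicates share a number, and the labels do not say whether same-numbered libraries were sorted from the same culture. The correlation of same-numbered deviations was 0.049 over 12022 genes. With 2 replicates to a group it cannot decide whether they are paired. The replicate block called 1667 higher and 1901 lower over all genes. The causes of these shifts were not tested.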

Other observations

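Chaperones outside the ER lumen were also measured. Of 23 tested cytosolic and mitochondrial chaperone genes, 9 were called higher and 1 lower in LC3-GFP positive cells, against 11.3% and 13.6% of all 12022 genes, with a median log2 change of 0.072. Cct6a, a subunit of the cytosolic chaperonin, had 352 and 366 CPM in positive libraries, against 307 and 307 CPM in negative libraries. The groups did not overlap (log2 change 0.22 ± 0.044, SE; edgeR's quasi-likelihood test, adjusted p = 0.00111). Hsph1, a nucleotide exchange factor for cytosolic Hsp70, had 101 and 108 CPM in positive libraries, against 89.1 and 85.3 CPM in negative libraries (log2 change 0.26, adjusted p = 0.00312). Grpel1, the mitochondrial counterpart of such factors, had 60.9 and 68.4 CPM in positive libraries, against 53.3 and 53.4 CPM in negative libraries (log2 change 0.28, adjusted p = 0.00855). Hsp90ab1, a cytosolic Hsp90, was lower, with 3444 and 3460 CPM in positive libraries, against 4146 and 3718 CPM in negative libraries (log2 change -0.19, adjusted p = 0.0133). As in the ER set, each of these changes was under 1.5-fold.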
